A study of Drosophila melanogaster with 3 samples.

Results

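HmgD peaks on the Drosophila X chromosome were the 522 regions of the deposited dm6 IDR list that lay on chrX, of 2964 peaks in that list. They were set against the 1852 peaks of the same list on autosomal arms, namely 546 on 2L, 555 on 3L and 751 on 3R. IDR, the irreproducible discovery rate, ranks candidate regions by how reproducibly they recur between replicates, and the IDR list holds the candidates that the authors kept. Here these were in effect the candidates of highest signal in the list pooled over replicates. The lowest signal kept was 114.7 and the highest not kept 114.6. Kept against not kept therefore means stronger against weaker pooled signal. The rule used position alone, so signal, gene context and sequence were free to differ between X and the autosomes.

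The study measured chromatin immunoprecipitation followed by sequencing (ChIP-seq) in 3 biological replicates of 1 group. The group was a transgenic line stably expressing HmgD with GFP fused to its C terminus, precipitated with an anti-GFP antibody from whole embryos of 0 to 24 h with males and females pooled. Chromatin was sheared by sonication to 200 to 800 bp. The line is a single transgenic strain, the embryo collection mixes all embryonic stages and cell types, and no untagged or mutant group was compared, so values describe the tagged protein in an average embryo. In a pool of both sexes X is present in fewer copies than an autosome, and copy number and binding cannot be told apart in these lists. The authors derived the candidate lists with a control, per the file descriptions, and the control was not used here. The lists hold no read counts, so depth is unknown. They also hold no transcript levels, so the tissue could not be checked against marker genes.

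HmgD is a high mobility group protein with a single HMG box, a domain that enters the minor groove of DNA and bends it with little preference for sequence. It is abundant in chromatin of the early embryo. In males, the single X is transcribed at a raised rate through the MSL complex, in which the acetyltransferase MOF and the noncoding RNAs roX1 and roX2 take part.

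The finding below turns on peaks inside introns, so the genome sequence around the summits of the 4 strongest intronic X peaks is printed first. Sequence of 3 of the strongest promoter peaks on X follows for contrast, with any annotated untranslated bases left out. Sequences are RefSeq Release 6 (dm6), plus strand, within 100 bp of the summit. Capitals mark matches, on either strand, to 12 short words searched in all peaks and listed further on.
CG32772, chrX:4910287-4910487: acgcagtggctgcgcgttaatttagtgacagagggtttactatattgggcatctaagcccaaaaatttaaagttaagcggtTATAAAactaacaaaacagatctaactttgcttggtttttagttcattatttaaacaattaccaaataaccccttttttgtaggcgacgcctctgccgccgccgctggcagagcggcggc
Raf, chrX:2297623-2297823: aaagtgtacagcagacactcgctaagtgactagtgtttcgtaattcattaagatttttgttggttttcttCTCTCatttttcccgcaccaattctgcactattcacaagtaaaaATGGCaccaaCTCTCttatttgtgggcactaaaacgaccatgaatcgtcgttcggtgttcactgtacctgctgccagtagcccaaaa
Tlk, chrX:3742106-3742306: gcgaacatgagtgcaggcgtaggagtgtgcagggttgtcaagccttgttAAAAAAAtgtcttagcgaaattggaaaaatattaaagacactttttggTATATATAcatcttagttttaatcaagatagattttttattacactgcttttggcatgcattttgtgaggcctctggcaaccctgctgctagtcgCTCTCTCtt
CG3726, chrX:5918821-5919021: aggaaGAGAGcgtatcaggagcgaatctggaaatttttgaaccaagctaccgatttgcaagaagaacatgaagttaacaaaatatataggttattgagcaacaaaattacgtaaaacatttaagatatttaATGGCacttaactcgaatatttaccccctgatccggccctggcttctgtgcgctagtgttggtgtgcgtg
Ugalt, chrX:2703853-2704010: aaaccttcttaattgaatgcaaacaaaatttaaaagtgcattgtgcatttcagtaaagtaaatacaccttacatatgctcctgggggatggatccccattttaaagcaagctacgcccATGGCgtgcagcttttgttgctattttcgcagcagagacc
ph-p, chrX:2137240-2137440: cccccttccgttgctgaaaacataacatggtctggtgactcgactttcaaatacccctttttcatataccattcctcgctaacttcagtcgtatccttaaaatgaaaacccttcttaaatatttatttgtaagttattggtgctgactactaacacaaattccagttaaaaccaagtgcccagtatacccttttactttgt
lncRNA:CR44619, chrX:12751343-12751543: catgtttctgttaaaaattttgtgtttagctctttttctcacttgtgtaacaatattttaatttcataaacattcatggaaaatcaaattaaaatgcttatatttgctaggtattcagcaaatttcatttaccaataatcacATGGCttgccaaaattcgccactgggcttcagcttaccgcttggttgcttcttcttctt
No word was held by all 7. The 4 intronic windows had a GC content of 38.8% to 42.8%. The Tlk window held AAAAAAA and TATATATA besides GAGAG on either strand, and the Raf and CG3726 windows each held GAGAG and GCCAT. The ph-p window held none of the 12 words.

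X peaks lay in introns more often than autosomal peaks did. An intron held the summit of 137 of 522 X peaks, 26.2% (95% Wilson interval 22.7 to 30.2), against 294 of 1852 autosomal peaks, 15.9% (14.3 to 17.6). A promoter, defined as 500 bp either side of an annotated transcription start site (TSS) and taking precedence over every other class, held 337 X peaks, 64.6%, against 1333 autosomal peaks, 72.0%. Intergenic sequence held 29 X peaks, 5.56%, against 178 autosomal peaks, 9.61%. Annotated 3' untranslated sequence held 10 X peaks, 1.92%, against 8 autosomal peaks, 0.432%. These 4 of 7 classes passed at an adjusted p of 0.05, with two-sided Fisher tests and the Benjamini-Hochberg adjustment over the classes. By Fisher's exact test the odds ratio of X over autosomes was 1.89 for introns (95% interval 1.50 to 2.38, adjusted p = 1.14e-06) and 0.709 for promoters (0.577 to 0.872, adjusted p = 0.00442). It was 0.553 by the same exact test for intergenic sequence (0.369 to 0.830, adjusted p = 0.00631) and 4.50 for 3' untranslated sequence (1.77 to 11.5, adjusted p = 0.00442). Peaks do not stand for separate embryos, and the p-values of these and all later Fisher, binomial and logistic tests describe the lists. The promoter difference missed the threshold among the stronger 1482 peaks of the IDR list (odds ratio 0.763, adjusted p = 0.148) and against 2L alone (0.775, adjusted p = 0.102), both by Fisher's exact test. So did the 3' untranslated difference in both settings (4.52 and 3.54) and the intergenic one against 3R alone (0.654). The 3' untranslated odds ratio rested on few peaks and was 12.4 without replicate 1 (2.34% on X and 0.193% on the autosomes) and 9.89 in the consensus, meaning the peaks strongest in all 3 replicates.

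**Figure D1:**
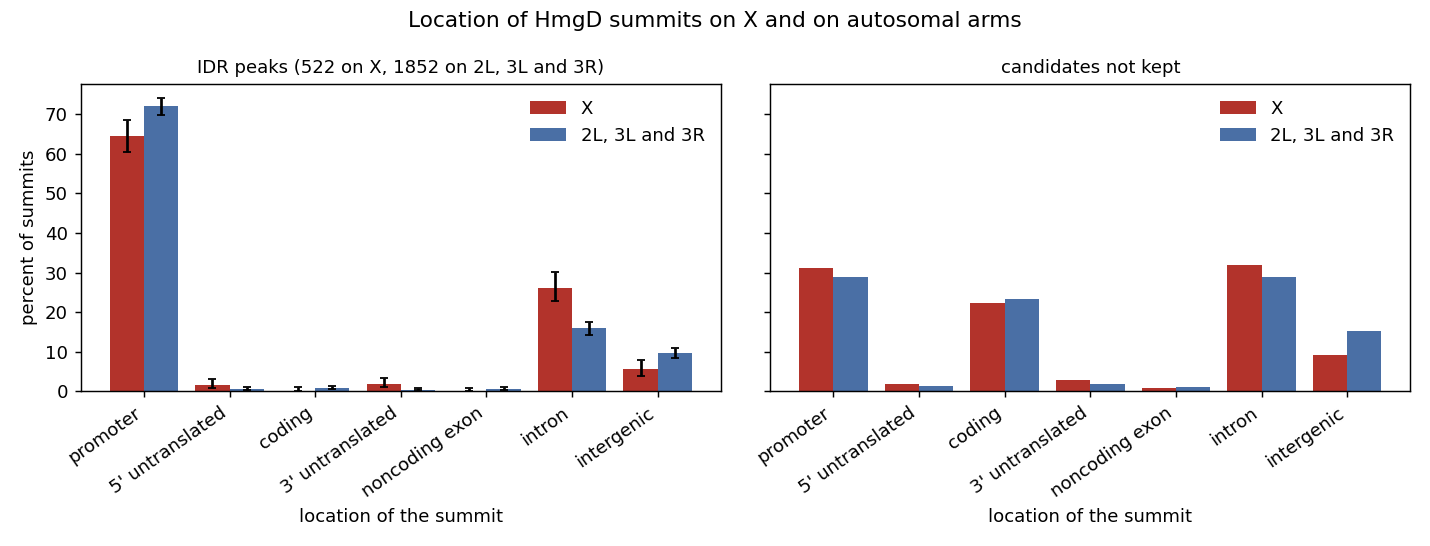
Percent of HmgD summits (vertical axis) in each location class (horizontal axis) on X and on 2L, 3L and 3R, for IDR peaks with 95% Wilson intervals (left) and for pooled candidates that were not kept (right). Among IDR peaks introns held 26.2% on X and 15.9% on the autosomes, whereas among candidates not kept they held 32.0% and 28.8%.

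The intronic share on X held in each replicate. When the 2964 strongest candidates of each replicate were taken in place of the IDR list, introns held 23.8% of X summits in replicate 1, 25.9% in replicate 2 and 27.0% in replicate 3, against 14.1%, 18.0% and 17.4% of autosomal summits in the same order of replicates. The X and autosomal values did not overlap. The mean was 25.5% ± 1.66 on X and 16.5% ± 2.09 on the autosomes (SD, n = 3), a difference of 9.02 ± 1.04 percentage points that was positive in 3 of 3 replicates. An exact two-sided sign-flip permutation test gave p = 0.25, the smallest p that 3 replicates allow. The promoter share averaged 64.3% ± 3.02 on X and 70.7% ± 2.23 on the autosomes (SD, n = 3) and was lower on X in each replicate. The share of 3' untranslated summits averaged 2.01% ± 0.282 on X and 0.488% ± 0.162 on the autosomes (SD, n = 3).

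By arm, the intronic share of IDR peaks was 26.2% on X, 16.1% on 2L, 13.9% on 3L and 17.2% on 3R, and the 3 autosomal intervals overlapped one another and not that of X. Against single arms the odds ratio was 1.85 for 2L, 2.21 for 3L and 1.72 for 3R, with an adjusted p of at most 0.000784 by Fisher's exact test. Across all 17 alternatives tried for location, the intronic odds ratio ranged between 1.72 and 2.22 and passed the threshold each time.

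**Figure D2:**
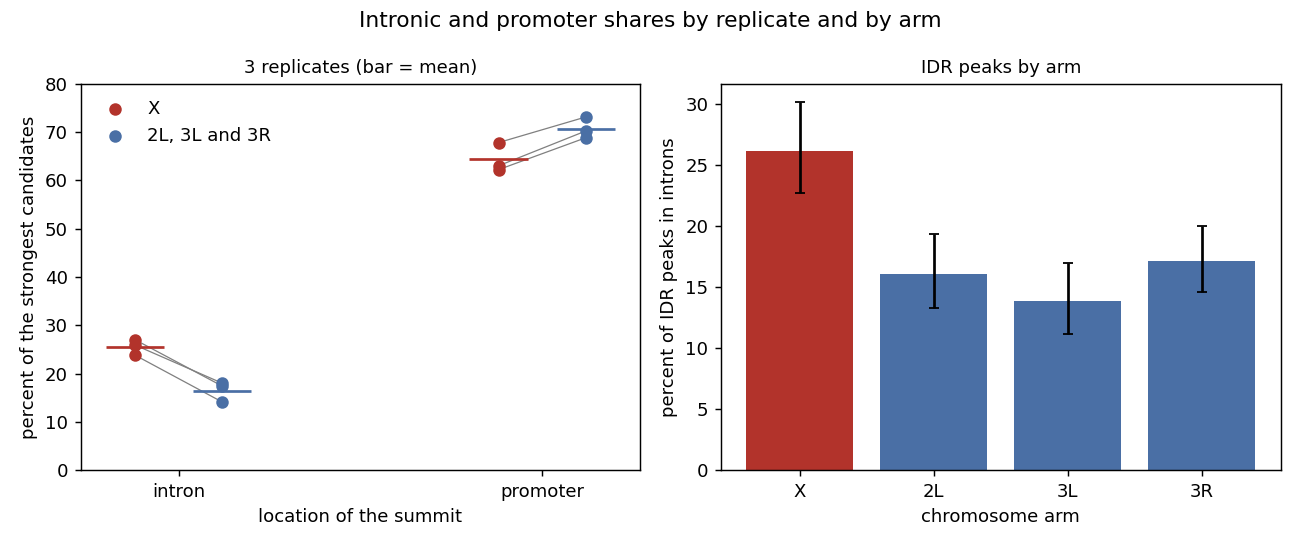
Left, percent of the 2964 strongest candidates (vertical axis) in introns and promoters on X and on 2L, 3L and 3R, with a point per replicate, a horizontal bar at the mean and lines joining the values of a replicate. Right, percent of IDR peaks in introns by chromosome arm with 95% Wilson intervals; X stands at 26.2% and the autosomal arms lie between 13.9% and 17.2%.

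The intronic difference was larger among kept peaks than among the candidates that were not kept. Candidates not kept lay in introns in 32.0% of cases on X and 28.8% on the autosomes, an odds ratio of 1.16. The ratio of the odds ratios, kept over not kept, was 1.62 (1.27 to 2.07, adjusted p = 0.000314, Wald test of the interaction in a binomial logistic model). For promoters the order turned round: 31.2% of candidates not kept lay in promoters on X and 28.9% on the autosomes, and the ratio of odds ratios was 0.636 (0.511 to 0.791, adjusted p = 0.000314, same binomial model). For intergenic sequence no such difference was detected; candidates not kept lay there at 9.29% on X and 15.2% on the autosomes (ratio 0.965, 0.634 to 1.47). The ratio for 3' untranslated sequence was 2.83 (1.09 to 7.39, adjusted p = 0.0779, same binomial model).

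X holds more intronic sequence than the autosomal arms. Outside promoters, introns made up 43.3% of the bases of X and 39.2% of the bases of the 3 autosomal arms. Per Mb of such intron there were 13.4 peaks on X and 8.96 on the autosomes, a ratio of 1.50 (binomial test, adjusted p = 0.000993). Per Mb of promoter there were 114 peaks on X and 117 on the autosomes, a ratio of 0.967 (adjusted p = 0.608, binomial test). Per Mb of 3' untranslated sequence there were 7.18 peaks on X and 2.33 on the autosomes (adjusted p = 0.0628, binomial test). Intergenic sequence outside promoters made up 22.6% of the bases of X and 28.0% of those of the autosomal arms. Per Mb of it there were 5.46 peaks on X and 7.59 on the autosomes, a ratio of 0.720. That difference missed the threshold (adjusted p = 0.205, binomial test). Annotated introns were also longer on X, with a median of 154 bp against 95 bp, and the part of intron length in the peak difference was not tested.

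Some X genes held several intronic peaks each. The 137 peaks lay in 99 host genes, 26 of which held 2 or more and 10 of which held 3 or more. The 294 autosomal peaks lay in 240 host genes, with 53 holding 2 or more and 12 holding 3 or more. Distinct intronic peaks per host gene numbered 1.38 on X and 1.23 on the autosomes. Hosts with 2 or more made up 26.3% on X and 22.1% on the autosomes, which missed the threshold in a comparison added after seeing the data (odds ratio 1.26, 0.731 to 2.16, p = 0.401, Fisher's exact test). Overlapping genes that share a peak each counted as a host, and the test does not allow for this. Without the 10 fullest hosts of each arm, the intronic odds ratio was 1.81 (adjusted p = 0.000162, Fisher's exact test). The median distance of an intronic summit to the nearest TSS was 2031 bp on X and 1904 bp on the autosomes. A first intron held 67.2% of intronic X peaks and 76.2% of intronic autosomal peaks, a difference that missed the threshold (odds ratio 0.639, 0.409 to 0.998, p = 0.0610, Fisher's exact test).

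Raf, which encodes the MAP kinase kinase kinase of receptor tyrosine kinase signalling and sits at chrX:2295466-2343870, held more intronic peaks than any other X gene, with 8 in introns and 10 in the gene. Of these, 7 were strung over 10031 bp at chrX:2296139-2306169, with authors' signals in map order of 261, 593, 181, 205, 188, 239 and 131; the first of them lay in 5' untranslated sequence. The peak of signal 593, whose sequence is printed above, stood at percentile 99.84 of all candidates in replicate 1, 99.89 in replicate 2 and 99.91 in replicate 3. The percentile ranks a candidate by signal within its replicate, since the signal scale differs between lists. The next in signal within Raf introns, at 239, stood at 95.02, 98.48 and 99.32 in replicates 1, 2 and 3. The weakest, at 131, stood at 20.31, 93.80 and 95.68, so replicate 1 placed it far below the other replicates.

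Tlk, the tousled-like kinase that acts on histone chaperones, held 7 intronic peaks at chrX:3720007-3789770, with signals between 127 and 522. Its strongest stood at percentile 99.84 in replicate 1, 99.83 in replicate 2 and 99.87 in replicate 3. Its peaks of signal 200 and 195 stood at or above 96.13 in each replicate, whereas its peak of signal 127 had no matched candidate in replicate 1. Hr4, a nuclear receptor of the ecdysone response, held 5 intronic peaks with signals of 131 to 276. NFAT, a Rel-family transcription factor, held 3, with signals of 202, 454 and 252 in map order. All 3 NFAT peaks stood at percentile 95.92 or above in every replicate. The long noncoding RNA gene lncRNA:CR44357 held 7 and CG1677 held 6, but these 2 genes overlap and share peaks.

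Peaks had close neighbours more often on X. Another IDR peak lay within 2 kb of 138 X peaks, 26.4%, against 400 autosomal peaks, 21.6% (odds ratio 1.30, 1.04 to 1.63, adjusted p = 0.0421 over 8 features, Fisher's exact test). The difference missed the threshold under 5 of 13 alternatives, among them without 3L (odds ratio 1.16) and with the neighbour sought within 1 kb (1.15) or 5 kb (1.10). It was larger without replicate 2 (20.1% on X and 8.14% on the autosomes, odds ratio 2.85) and in the consensus of the 3 replicates (2.50). When peaks with gaps of at most 2 kb were joined, the 522 X peaks formed 446 groups, of which 384 held a single peak, 54 held a pair and 8 held 3 or more. Among intronic peaks the share with a neighbour was 32.8% on X and 23.5% on the autosomes (adjusted p = 0.0925, Fisher's exact test). With only the strongest peak of each group retained, the intronic odds ratio was 1.77 (adjusted p = 0.000118, Fisher's exact test).

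The strongest X peaks mixed promoters and introns. Of the 25 with the highest signal, 15 lay in promoters, 9 in introns and 1 in intergenic sequence, and 22 stood in the upper 1% of candidates in every replicate. The promoter class counts any summit within 500 bp of a TSS. Its summits among the 25 lay 58 bp (Ugalt) to 499 bp (lncRNA:CR44619) from the nearest TSS, and that of ph-p lay 485 bp away. The median over all X promoter peaks was 78 bp. The strongest of all lay 58 bp upstream of the TSS of Ugalt, the UDP-galactose transporter of the Golgi, at chrX:2703742-2704062 with a signal of 1144, rank 4 in the whole list and percentile 99.99 in each replicate. The peak nearest to a TSS of ph-p, a subunit of the Polycomb repressive complex PRC1, had a signal of 885 and stood at percentiles 99.98, 99.98 and 99.95 in replicates 1, 2 and 3. A peak at MFS10, a predicted transporter of the major facilitator superfamily, had a signal of 785. Both ends of the window around the TSS of lncRNA:CR44619 carried a peak, of signal 750 and 628. Atf3, a bZIP transcription factor, followed with 656, and its replicate percentiles were 99.91, 99.90 and 99.90.

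The 9 intronic peaks among the 25 lay in CG32772 (signal 682), Raf, Tlk, CG3726 (510), norpA (457), NFAT, LPCAT (442), egh (353) and CG34417 (319). CG32772 stood at percentiles 99.94, 99.91 and 99.90 in replicates 1, 2 and 3, and CG3726 at 99.82, 99.86 and 99.77. norpA encodes the phospholipase C of phototransduction, LPCAT an acyltransferase of phospholipids and egh a glycosyltransferase of glycosphingolipids. The remaining promoter peaks lay at moody, the G protein-coupled receptor of the glial blood-brain barrier (498), at CG3009 (450), at TRAM of the endoplasmic reticulum translocon (446) and at CG17896 (434). They also lay at dnc, the cAMP phosphodiesterase (424), sgg, the GSK-3 kinase (362), bves (356), CG4586 (330) and CBP (319). The 1 intergenic peak was nearest to lncRNA:CR42794 (403). Of the 25, 3 lay outside the upper 1% in a replicate: lncRNA:CR42794 stood at 98.75, 99.77 and 99.75, CG4586 at 97.38, 99.70 and 99.40, and bves at 99.27, 99.80 and 98.36.

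**Figure D3:**
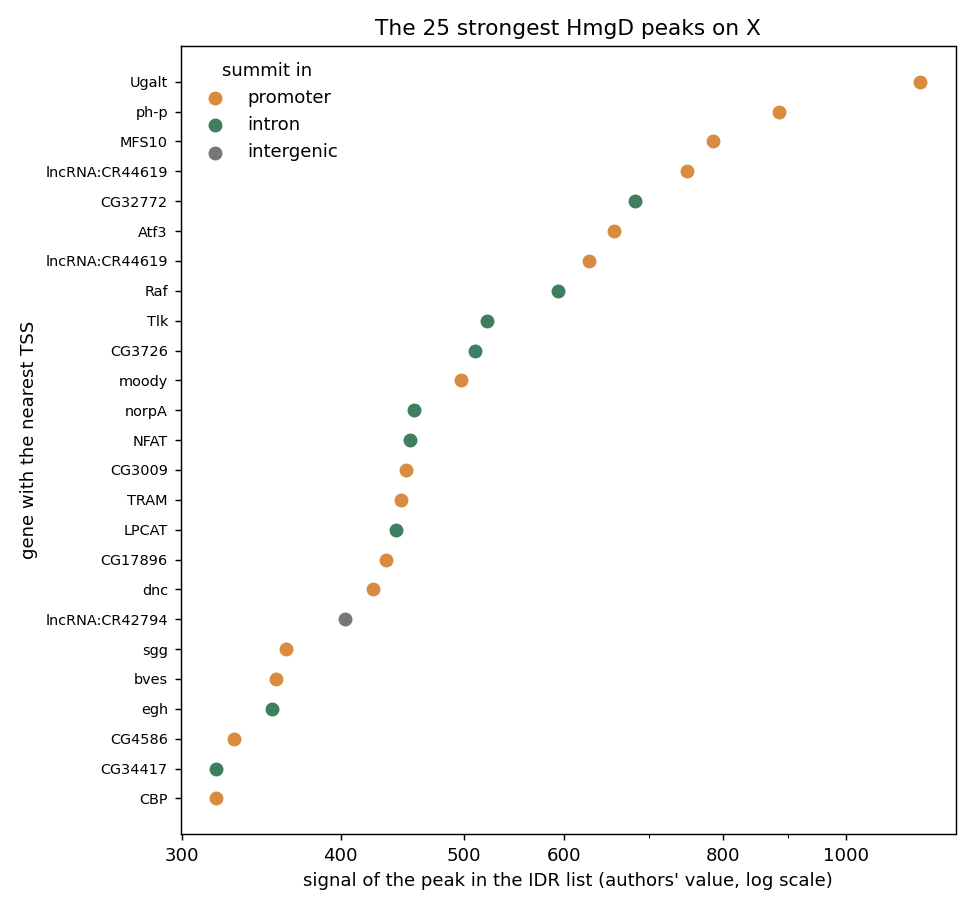
Signal of the 25 strongest X peaks in the IDR list (authors' value, horizontal log axis), each named by the gene with the nearest TSS and coloured by the location of its summit. Signals span 319 at CBP to 1144 at Ugalt, and 9 of the 25 summits lie in introns.

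Strong peaks were unevenly spread along X. The first 10 Mb held 20 of the 25 strongest peaks, 10 to 14 Mb held 4, 14 to 21 Mb held 0 and the rest of the arm held 1. Introns held 30.1% of the 286 IDR peaks of the first 10 Mb and 21.6% of the 236 beyond it. The latter divided into 28.2% of 78 at 10 to 14 Mb, 19.4% of 139 at 14 to 21 Mb and 10.5% of 19 in the rest. The higher intronic share was thus not even along X. The share of candidates kept was 12.3% in the first 10 Mb and 9.48% beyond. These stretches were chosen after the positions were seen and were not tested.

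X promoter peaks lay upstream of the TSS more often, and X peaks lay at a divergent pair of TSSs less often. The summit lay upstream of the nearest TSS for 270 of 337 promoter peaks on X, 80.1%, against 971 of 1333 on the autosomes, 72.8% (odds ratio 1.50, 1.12 to 2.01, adjusted p = 0.0257, Fisher's exact test). Candidates not kept differed in the same direction, at 49.0% on X and 43.1% on the autosomes, and the interaction did not pass (ratio of odds ratios 1.19, p = 0.294, binomial logistic model). Among promoter peaks without a divergent pair the upstream share was 77.6% on X and 70.7% on the autosomes, which missed the threshold (odds ratio 1.44, adjusted p = 0.0925, Fisher's exact test). The upstream difference also missed it among the stronger 1482 peaks (1.47), among peaks strongest in all 3 replicates (1.47, adjusted p = 0.255) and when peaks were redefined as those strongest in both remaining replicates without replicate 2 (adjusted p = 0.230) or without replicate 3 (0.215), by Fisher's exact test. A pair of divergent TSSs lay within 500 bp of 96 X peaks, 18.4%, against 464 autosomal peaks, 25.1% (odds ratio 0.674, 0.528 to 0.861, adjusted p = 0.0128, Fisher's exact test). These shares are over all peaks, and a smaller share of X peaks lay at promoters. Over promoter peaks alone, a comparison added after seeing the data, the divergent share was 28.5% on X and 34.8% on the autosomes (odds ratio 0.746, 0.574 to 0.970, unadjusted p = 0.0282, Fisher's exact test). Without replicate 1 the odds ratio over all peaks was 0.696 (adjusted p = 0.0663, Fisher's exact test). Among candidates not kept the divergent share was 5.87% on X and 4.76% on the autosomes, and the ratio of odds ratios was 0.541 (0.407 to 0.719, p = 2.37e-05, binomial logistic model).

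With genes as the unit, genes with a head-to-head neighbour had a promoter peak less often on X, in a comparison chosen after the peak values were known. The peak could lie at any annotated TSS of the gene, including a TSS away from the head-to-head neighbour. Head-to-head neighbours, meaning an opposite-strand TSS of another protein-coding gene within 1000 bp upstream, were held by 35.7% of protein-coding genes on X and 36.6% on the autosomes. A promoter peak was present at 216 of 783 such X genes, 27.6%, against 1055 of 3224 autosomal genes, 32.7% (odds ratio 0.783, 0.659 to 0.931, adjusted p = 0.0162 over 3 tests, Fisher's exact test). At other protein-coding genes it was present at 12.1% on X and 11.2% on the autosomes (odds ratio 1.09, 0.912 to 1.31). The ratio of these odds ratios was 0.717 (0.558 to 0.920, p = 0.00905, binomial logistic model). A peak between 2 such genes counted for both, so paired genes were not separate units, and these intervals and p-values do not allow for that.

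**Figure D4:**
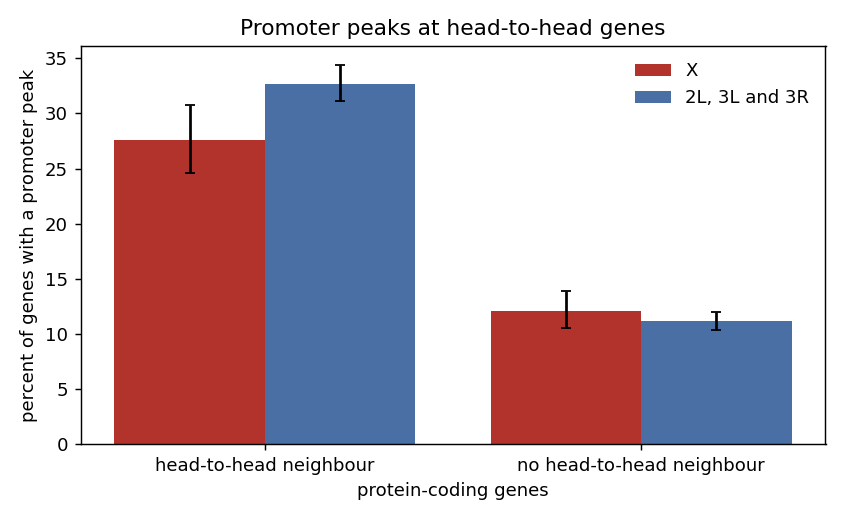
Percent of protein-coding genes with an IDR summit within 500 bp of a TSS (vertical axis), for genes with and without a head-to-head neighbour (horizontal axis), on X and on 2L, 3L and 3R, with 95% Wilson intervals. Head-to-head genes reached 27.6% on X and 32.7% on the autosomes, and other genes 12.1% and 11.2%.

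Base composition differed between X and autosomal peaks in the main setting. The median GC content of 200 bp at the summit was 42.8% on X and 41.3% on the autosomes, and 54.6% of X peaks against 48.4% of autosomal peaks were above the median of all 4 arms (odds ratio 1.28, 1.06 to 1.56, adjusted p = 0.0352, Fisher's exact test). With GC content taken over 100 bp the odds ratio was 1.14 (adjusted p = 0.289, Fisher's exact test), and with 2R added to the autosomes 1.23 (adjusted p = 0.0598). Candidates not kept went the other way, at 72.2% on X and 75.2% on the autosomes (ratio of odds ratios 1.50, 1.22 to 1.85, p = 0.000148, binomial logistic model). A split by location was chosen after the main values were seen. At promoter peaks the median GC content was 43.8% on X and 41.8% on the autosomes (adjusted p = 0.00117, Fisher's exact test of the share above the median), and at intronic peaks it was 40.3% in both. At intergenic peaks, of which X had 29, it was 40.8% on X and 39.6% on the autosomes (adjusted p = 0.380, same Fisher's exact test). Whether the difference varied with location was not tested.

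In the IDR list, neither signal nor width passed the test between X and the autosomes. Signal was compared only among peaks above the cut of that list, whose lowest signal was 114.7. The median signal was 159 on X and 159 on the autosomes. Peaks above the 4-arm median signal made up 49.6% on X and 50.1% on the autosomes (odds ratio 0.981, 0.807 to 1.19). Among the peaks strongest in all 3 replicates, the share above the median signal of those peaks was 42.0% on X and 52.4% on the autosomes and passed the test (odds ratio 0.658, 0.490 to 0.883, adjusted p = 0.0120, Fisher's exact test). Among those strongest in 2 replicates, each set cut at its own median, the odds ratio was 0.836 without replicate 1, 0.742 without replicate 2 and 0.761 without replicate 3. In the IDR list, peaks in the top 10% of signal were 8.62% on X and 10.4% on the autosomes (0.811, 0.577 to 1.14). Peaks narrower than the common width of 404 bp made up 8.24% on X and 8.15% on the autosomes. Peaks among the 2964 strongest in all 3 replicates made up 45.4% on X and 41.4% on the autosomes (odds ratio 1.18, 0.970 to 1.43). In single replicates, a matched candidate was found for 96.9% to 97.7% of X peaks and 95.5% to 96.9% of autosomal peaks.

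None of 12 sequence words passed the test between X and autosomal peaks, and 3 had an unadjusted p below 0.05. Both strands were searched up to 100 bp from each summit. The promoter words were TATCGATA, its shorter core CGATA, the motif GGTCACAC and the TATA box letters TATAAA. AGGTGGCGC is a core of the CTCF motif, and the shorter GCCAT is part of the motif of the Polycomb recruiter Pho. The repeat words were GAGAG and the longer GAGAGAGA that contains it, then CACACACA, TATATATA and the run AAAAAAA. The last was CAGGTAG, recognised by Zelda in early embryos. TATCGATA, the core recognised by the factor DREF, was within reach of 10.2% of X summits and 7.34% of autosomal summits. CGATA was at 42.9% on X and 37.7% on the autosomes, and CACACACA at 10.3% on X and 7.45% on the autosomes. The adjusted p was 0.174 for each of these 3. For all 3 the candidates not kept leaned the same way, at 2.21%, 24.5% and 7.80% on X against 1.24%, 22.3% and 5.72% on the autosomes. GAGAGAGA, a repeat of the GAGA type, was at 5.17% on X and 3.73% on the autosomes, and at 4.19% on X and 2.12% on the autosomes among candidates not kept. TATAAA was at 17.2% on X and 20.4% on the autosomes; its lower share on X passed Fisher's exact test under 5 of 15 alternatives. These were without replicate 2 (odds ratio 0.579), without replicate 3 (0.528), the stronger 1482 peaks (0.493), the consensus (0.463) and a search within 200 bp (0.649), where 29.9% of X summits and 39.6% of autosomal summits held it. CACACACA passed within 200 bp, at 20.7% on X and 13.4% on the autosomes (odds ratio 1.68), and among the stronger 1482 peaks (2.13). GAGAG, at 32.0% on X and 28.5% on the autosomes, passed without replicate 3 (1.54, adjusted p = 0.0106, Fisher's exact test). A match says only that these letters are present.

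How many peaks X held depended on the background. X had 22.2 IDR peaks per Mb and the autosomes 22.1 (ratio 1.00, 0.909 to 1.10, adjusted p = 0.960, binomial test), and per 1000 TSSs 134 on X and 127 on the autosomes (ratio 1.05, 0.957 to 1.16, adjusted p = 0.559). Candidates were sparser on X, at 205 per Mb against 224 to 229 on single autosomal arms. Of 4817 X candidates 522 were kept, 10.8% (9.99 to 11.7), against 1852 of 19026 on the autosomes, 9.73% (9.32 to 10.2). Over the 4 arms 9.96% of candidates were kept. The odds ratio was 1.13 (1.02 to 1.25, p = 0.0237, Fisher's exact test), and with each of the 4 arms tested against the other 3 the adjusted p for X was 0.0473. The lower share was that of 3L, at 8.80% (odds ratio 0.834, adjusted p = 0.00137, Fisher's exact test), and without 3L the odds ratio for X was 1.07 (p = 0.222). Among promoter candidates alone the order turned round, with an odds ratio of 0.936 (p = 0.344, Fisher's exact test).

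By replicate, 12.8%, 10.8% and 10.1% of X candidates were among the 2964 strongest of replicates 1, 2 and 3, against 9.99%, 9.72% and 9.65% of autosomal candidates. The list of replicate 1 held 28193 candidates, and those of replicates 2 and 3 held 30000 each. X was higher in 3 of 3 replicates by 2.80, 1.11 and 0.447 percentage points, a mean of 1.45 ± 1.21 (SD, n = 3; exact two-sided sign-flip permutation test, p = 0.25, the smallest possible). Without replicate 1 the mean difference was 0.778 percentage points. With the 1482 strongest candidates of each replicate it was 0.533 ± 0.122 (SD, n = 3) and positive in 3 of 3 replicates. With the 5928 strongest it was 1.29 ± 2.74, positive in 2 of 3 replicates and -0.916 in the lowest.

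**Figure D5:**
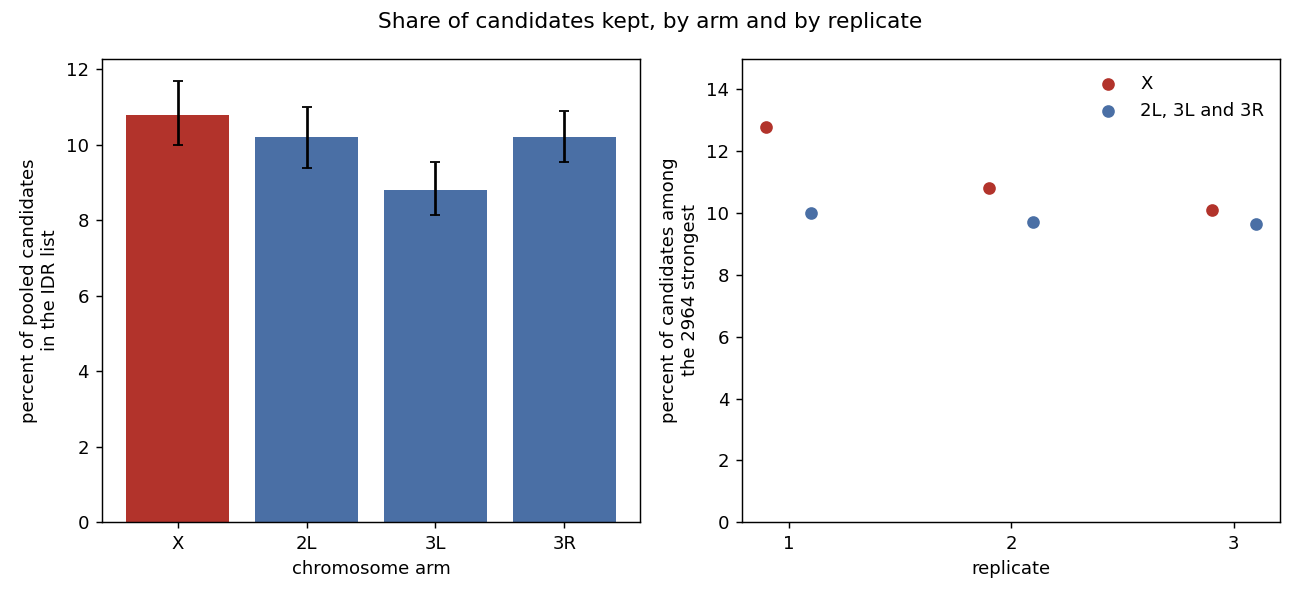
Left, percent of pooled candidates in the IDR list (vertical axis) by chromosome arm, with 95% Wilson intervals. Right, percent of candidates among the 2964 strongest of each replicate (vertical axis) on X and on 2L, 3L and 3R; the X value of replicate 1, 12.8%, stands farthest from its autosomal value, 9.99%.

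Over all annotated genes, the share with a promoter peak did not pass the test. A promoter peak was present at 420 of 2813 X genes, 14.9%, against 1802 of 11483 autosomal genes, 15.7% (odds ratio 0.943, 0.840 to 1.06, adjusted p = 0.324, Fisher's exact test). Over X and the 3 autosomal arms together the share was 15.5%. For protein-coding genes it was 17.6% on X and 19.1% on the autosomes, and for noncoding RNA genes 6.00% on X and 4.43% on the autosomes, with an adjusted p of 0.231 for each. Among protein-coding genes with a candidate at the promoter, a peak was present at 30.3% on X and 34.6% on the autosomes, which passed (odds ratio 0.822, 0.719 to 0.939, adjusted p = 0.0114, Fisher's exact test).

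Against that 14.9%, 14 lists of X genes were counted without a test. Cytoplasmic ribosomal proteins had a promoter peak at 12 of 14 genes, with signals reaching 310 at RpL22, 226 at RpS5a and 224 at RpS10b. RpS14a (115) and RpS14b (156) are near-identical neighbouring copies, and whether reads were divided between them was not tested. The RpS14a peak was nearest to the TSS of Dhdds. RpL35 (99.4) and RpS6 (97.4) had candidates that were not kept. Mitochondrial ribosomal proteins had 1 of 11, at mRpS14 (124). RpL22 stood at percentiles 99.50, 99.26 and 97.77 in replicates 1, 2 and 3, high in all of them, and its peak was nearer to the TSS of lncRNA:CR44966.

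Patterning and signalling genes had a promoter peak at 8 of 14. sgg, of the Wnt pathway, had a signal of 362, oc, a homeobox gene of head patterning, 313, and csw, a tyrosine phosphatase of receptor signalling, 228. Percentiles of oc were 96.62, 99.32 and 99.77 in replicates 1, 2 and 3, lowest in replicate 1. Without a promoter peak, sog held 1 intronic IDR peak (121). Polycomb and trithorax genes had 4 of 7: ph-p, ph-d (171), fs(1)h, a BET bromodomain protein (235, nearest to the TSS of mys), and Bap60, a subunit of Brahma remodelling complexes (242, nearest to the TSS of CG12096). The Bap60 peak had no matched candidate in replicate 1 and stood at percentiles 97.91 and 98.19 in replicates 2 and 3. trr, a histone methyltransferase (83.9), e(y)3 (104) and Dsp1, which encodes another HMG-box protein (102), had promoter candidates that were not kept, although e(y)3 and Dsp1 held an IDR peak elsewhere in the gene, of signal 121 and 118.

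In the dosage compensation list 1 of 3 genes had a promoter peak. roX1 had a signal of 123 and stood at percentiles 87.55, 91.76 and 88.43 in replicates 1, 2 and 3. The candidates at roX2 (37.9) and at mof, the acetyltransferase gene (68.6), were not kept, and that at roX2 had no match in any replicate. Of 5 sex signal genes, Sxl, the master switch of sex determination, had a peak of 133 at percentiles 97.44 and 95.14 in replicates 1 and 2 and no match in replicate 3. The candidates at run (86.1), sisA (50.9) and upd1 (49.7), which feed the X-counting signal, were not kept, and sc had no promoter candidate. Neural genes had 3 of 10, at dnc, elav, an RNA-binding protein of neurons (248), and rut, an adenylyl cyclase (117).

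Insulator and architecture genes had 0 of 4; their candidates reached 111 at z, 69.4 at e(y)2, 49.2 at SMC3 and 42.9 at dwg. Cell cycle genes had 0 of 7, with candidates at 4 of them, and Myc held 1 intronic IDR peak (118). Eggshell and yolk genes, whose main expression is in the adult female, had 0 of 9 and no candidate at any. Visible marker genes had 1 of 9, at r, whose peak had no match in replicate 1. Without a promoter peak, ct held 2 intronic IDR peaks (137 and 120). Among small RNA genes a promoter peak was found at 2 of 26 tRNA genes, 1 of 31 snoRNA genes and 4 of 58 microRNA genes. The share over X genes annotated as noncoding RNA was 6.00%, below the 14.9% of all X genes. The peak at tRNA:Phe-GAA-1-2 (214) was the promoter peak of RpL17, already counted among ribosomal proteins. The microRNA peaks included mir-4962 inside Tlk (193), and mir-303 and mir-982 shared 1 peak (148). That at mir-9370 (125) was nearest to the TSS of FucT6.

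The 10 X peaks in 3' untranslated sequence had signals between 126 and 202. The strongest lay in raskol (202), at percentiles 96.29, 97.28 and 96.81 in replicates 1, 2 and 3, and in RSG7 (202), at 98.40, 93.96 and 95.61. CG7872 (193) and REG (192) followed, and 2 of the 10 had no matched candidate in 1 replicate. Annotated 5' untranslated sequence held 8 X peaks, 1.53%, against 11 autosomal peaks, 0.594%, which missed the threshold (odds ratio 2.60, 1.04 to 6.51, adjusted p = 0.0667, Fisher's exact test). It passed under 4 of 17 alternatives: a promoter window of 250 bp (2.80), without 2L (5.07), against 3R alone (5.83) and without the fullest hosts (2.99). Coding sequence held 1 X peak, at Bx (149), against 15 autosomal peaks.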

How the data were processed

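ChIP-seq peak lists of 3 biological replicates of 1 group were analysed. The lists are narrowPeak files on dm6 and dm3, and the authors kept a background of weak candidates in the replicate and pooled lists, per the file descriptions. The signal of each peak and its −log10 q were deposited by the authors; the signal was used only to rank or describe peaks within a list and −log10 q was not compared. For the aligner, the peak caller and the IDR cut-off, the sources used here give nothing. Depth is unknown.

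Members and gene lists were chosen with earlier results of these data known. Summits were placed on the Ensembl 115 annotation (transposable elements left out) and the RefSeq Release 6 sequence, and matched between lists when mutually nearest and within 200 bp. X was compared with 2L, 3L and 3R by Fisher's exact test, two-sided, with Woolf odds ratio intervals, Wilson intervals for shares and Benjamini-Hochberg adjustment at 0.05 within each family; densities by binomial tests; kept against not kept by a logistic interaction; replicates by exact sign-flip permutation. These intervals reflect how many peaks or genes were counted and no other error. The IDR list was in effect the strongest pooled candidates: the lowest signal kept was 114.7 and the highest not kept 114.6.

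Named genes were those with the TSS nearest to the 25 strongest X peaks, up to 3 members with the strongest promoter peak per gene list, all members of lists of at most 7, Dsp1, roX1 and roX2. Intron hosts, 3' untranslated peaks and other genes were named after their values were seen. Splits of GC content, upstream summits and close neighbours by location, and the comparison of first introns, were also chosen after the main values were seen. Alternatives varied the arms, the peak set, promoter, word and GC windows and the build. Cuts for signal and GC content were taken anew in each. The code, in Python 3.11.15 with numpy 2.4.6, scipy 1.17.1 and pandas 2.3.3, was tested on simulated data.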

Additional observations from a re-analysis of the deposited data

How the results depend on the processing

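Over 34 alternative settings, 515 recomputed values were set beside the reported ones. Of these 436 kept their direction and their side of the threshold, 21 lost it, 19 gained it, 29 changed direction and 10 counts moved by more than 1.5 times. The only called result to change direction was the share of candidates kept. The cause was not tested for any of these changes. No paired analysis was possible because there is only 1 group of samples; X and autosomal values of the same replicate were instead compared within each replicate.

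The odds ratio of the share of X candidates kept, 1.13, was 1.07 without 3L, 1.11 for the stronger 1482 peaks, 1.10 on dm3, 1.08 with 1 peak per group of neighbours (chosen after seeing the data) and 0.936 among promoter candidates; across the left-out replicates it was 1.15 to 1.21. The promoter odds ratio was 0.763 for the stronger 1482 peaks and 0.775 against 2L alone, also chosen after seeing the data, and 0.626 to 0.715 across left-out replicates. The intronic odds ratio was 1.77 to 2.22 and the divergent pair odds ratio 0.501 to 0.696 across left-out replicates. Location classes past the threshold numbered 2, in place of 4, for the stronger 1482 peaks and against 2L alone, and features numbered 2 in place of 4 when 2R was added and with GC over 100 bp. Across left-out replicates 3 features, 4 location classes and 0 to 2 words passed. Words past the threshold, 0 in the report, numbered 2 without 3R (TATCGATA and CGATA), 3 for the stronger 1482 peaks (TATAAA, CACACACA and GAGAGAGA), 1 for the consensus of the replicates (TATAAA) and 3 within 200 bp (TATAAA, CACACACA and AAAAAAA). The odds ratio for genes with a promoter peak was 1.01 without 3R and 0.933 to 0.989 across left-out replicates, peaks per Mb had a ratio of 0.999 with 2R added, and the replicate difference was 0.778 to 1.95 percentage points. Other values that passed only under an alternative were signal above the median in the consensus (0.658), protein-coding genes with a promoter candidate (0.822), noncoding exons against 3L alone (0.0809) and the 5' untranslated class, under 4 settings.

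Odds ratios of results that had not passed crossed 1 as follows. Narrow peaks gave 0.998 without 3L, 0.962 without 3R, 0.933 to 0.992 across left-out replicates (0.981 without replicate 3), 0.924 in the consensus and 0.946 with 1 peak per group. Signal above the median gave 1.02 with 2R added and without 2L, and 5' untranslated sequence 0.891 for the stronger 1482 peaks. TATCGATA gave 0.949 without replicate 1 and 0.899 in the consensus. AAAAAAA gave 0.919 within 50 bp. GCCAT gave 0.992 without 3L, 0.976 within 200 bp, 0.765 outside promoters and 0.980 at high GC content. CAGGTAG gave 0.891 for the stronger 1482 peaks and 0.989 in promoters. Outside promoters GGTCACAC gave 1.41, AGGTGGCGC 0.882 and GAGAGAGA 0.897. At high GC content GGTCACAC gave 1.05 and TATATATA 0.284, and at low GC content GAGAGAGA gave 0.930 and CACACACA 0.689. The share strongest in all replicates has no value in the consensus, nor the share with a close neighbour with 1 peak per group, since each is fixed by construction. Removing a replicate meant taking the candidates among the strongest of both others, so the set was smaller (1489 to 1767 peaks). Depth is unknown, so it could not be used to weigh replicates.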
